A study of Arabidopsis thaliana with 18 samples.

Results

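The comparison described here is between root protoplasts given a plasmid that over-expresses IAA7mII and root protoplasts given an empty vector, both treated with solvent alone (mock). Its members were chosen by sample title: 3 IAA7mII mock arrays and 3 empty vector mock arrays, 6 of the 18 Affymetrix ATH1 arrays of the study. Col-0 Arabidopsis seedlings carrying a Pwer::GFP reporter, which marks root epidermis, were grown for 7 days. Protoplasts were released from the roots in a digestion of 3 h, then transformed with polyethylene glycol and kept overnight. They then received solvent for 3 h, and cells with both fluorescent labels were sorted for RNA, which was amplified before hybridisation. The IAA7mII plasmid was pBeaconRFP_IAA7mII and the empty vector was pMON999_mRFP, so every difference below is one of IAA7mII and of plasmid backbone, and these cannot be told apart. Expression was transient, and the labels name no promoter for IAA7mII. Further arrays used beside these held IAA7mII and empty vector cells given 5 µM indole-3-acetic acid (IAA) for 3 h, and mock cells given pBeaconRFP_IAA19mII, with 3 arrays in each group.

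IAA7 is an Aux/IAA protein. Proteins of this family bind auxin response factors at the promoters of auxin-induced genes and hold those genes down. Auxin joins the domain II of an Aux/IAA protein to a ubiquitin ligase receptor, the protein is degraded and its target genes are released. Changes in domain II make an Aux/IAA protein stable in the presence of auxin; mII is read here as such a change, which the labels do not spell out. In the root epidermis, auxin response is known for its part in cell elongation and root hair growth. The mock comparison asks what the over-expressed repressor and its plasmid do in cells to which no IAA was added.

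Values are MAS5 signals, a measure of probeset brightness on a linear scale. Changes are differences of log2(signal + 16) between group means, so that folds of weakly expressed genes are understated, and values after ± are standard errors from a limma fit to all 18 arrays. A probeset was called at a Benjamini-Hochberg adjusted p under 0.05. The 75th percentile of the signal was 264 to 269.8 on the empty vector mock arrays and 225 to 229 on the IAA7mII mock arrays, and the median SD of a probeset within the group was 0.26 and 0.35 on the log2 scale. Nothing in the labels tells if the 3 replicates of a group came from separate cultures. The p-values thus reflect array-to-array spread that may be technical, and the number of arrays limits the precision. Where a level differs, fewer cells of a type and less RNA per cell cannot be told apart. Probesets for IAA7 were not analysed here under that name, so the over-expressed gene was not checked. Of 38 markers of root cell types, few had a named probeset. The list of non-hair epidermis and lateral root cap had 1 of 9, root hair 2 of 7, cortex and endodermis 1 of 4, stem cell niche 1 of 4, root cap 0 of 4 and stele 0 of 10. TRY, from the list of non-hair epidermis and lateral root cap, had signals of 7.40 to 19.1 with empty vector and 16.1 to 24.4 with IAA7mII (adjusted p = 0.654). The root hair gene EXPA7 gave 53.4, 54.7 and 51.1 against 39.2, 27.4 and 25.9, without overlap (-0.57 ± 0.52, adjusted p = 0.560). The niche marker AGL42 gave 48.2 to 70.0 against 49.3 to 128 (0.35 ± 0.39, adjusted p = 0.641). EXPA18 of root hairs and CO2 of the cortex were at or below 11.1 on all 6 arrays and were not tested. These few markers, all of low signal, do not settle which root cells were sorted.

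Of 16892 tested probesets, 1928 (11.4%) were called, 900 higher (5.33%) and 1028 lower (6.09%) with IAA7mII. The median fold was 2.27 among the higher calls and 2.35 among the lower calls. Calls of at least 2-fold were more often downward, with 570 probesets higher and 735 lower. Larger changes were more often upward: 116 probesets rose and 83 fell by at least 4-fold, and 28 rose and 8 fell by at least 8-fold. Groups of 3 arrays did not overlap for 886 of the higher and 1020 of the lower calls, beside 5663 (33.5%) of all tested probesets. The median change over tested probesets was -0.09. Centring each array on its median over tested probesets moved that median to 0.13 and the calls to 1414 higher and 537 lower. Centring over all probesets gave 931 and 750, and quantile normalization gave 931 and 861, so the balance of the directions rests on the scaling. With one probeset per gene, 454 of 9391 genes rose (4.83%) and 512 fell (5.45%).

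**Figure D1:**
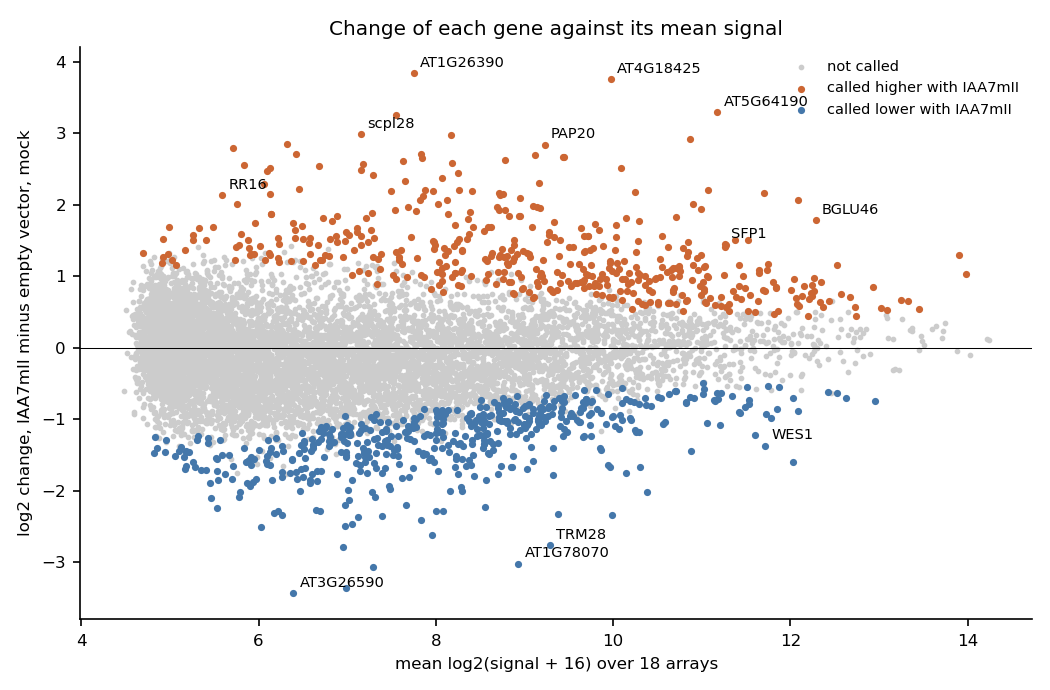
Each point is a gene, with its mean log2(signal + 16) over 18 arrays on the horizontal axis and its log2 change (IAA7mII minus empty vector, mock) on the vertical axis; orange and blue points were called higher and lower. Calls lie on both sides at most levels, and AT1G26390 with a change of 3.85 and AT3G26590 with -3.44 mark the 2 ends.

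The 12 largest rises included 2 named enzyme genes, scpl28 and PAP20, beside loci that the annotation used here gives only by identifier. AT1G26390 gave 28.7, 88.7 and 35.5 on the empty vector arrays and 899.5, 715 and 1057 on the IAA7mII arrays, 14.4-fold higher (log2 change 3.85 ± 0.35, adjusted p = 1.50e-08). AT4G18425 gave 213, 159.7 and 142 with empty vector and 2600.0, 2276 and 2632 with IAA7mII, 13.6-fold higher (3.76 ± 0.20, adjusted p = 4.28e-13). AT5G64190 went from 477 to 898 to a range of 5657 to 7114, which is 9.83-fold higher (3.30 ± 0.22, adjusted p = 3.46e-11). In all of these every IAA7mII array was several times above every empty vector array, though groups without overlap were required for a gene to be among the 12. The serine carboxypeptidase-like gene scpl28, of a family of secreted or vacuolar peptidases and acyltransferases, gave 15.4, 22.3 and 30.2 with empty vector and 240.4, 386 and 253 with IAA7mII, 7.93-fold higher (2.99 ± 0.34, adjusted p = 8.21e-07). PAP20, a purple acid phosphatase, gave 181, 171 and 172 against 1474, 1129 and 1487, 7.17-fold higher (2.84 ± 0.24, adjusted p = 3.34e-09). The PAP20 groups were tight, with the lowest IAA7mII array far above the highest empty vector array. The remaining genes among the 12 largest rises were AT2G16890, AT4G09100, AT5G43590, AT2G43880, AT1G29090, AT5G08480 and AT3G46280, which were 6.54-fold to 9.53-fold higher. AT5G43590 was the steadiest of these, with 539.7 to 566 against 3902 to 4584 (2.92 ± 0.18, adjusted p = 7.34e-12). For AT5G08480 one array stood apart, IAA7mII replicate 1 at 70.6 beside 234 and 358, and the change was 3.32 without it and 2.71 with it.

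The 12 largest falls included TRM28 and FOLB2 by name, and otherwise loci given only by identifier. AT3G26590 gave 198, 272 and 182 with empty vector and 2.10, 6.60 and 7.50 with IAA7mII, 10.8-fold lower (-3.44 ± 0.47, adjusted p = 9.73e-06). AT3G25930 gave 556, 438 and 493 against 28.1, 14.4 and 73.5, 10.3-fold lower (-3.37 ± 0.43, adjusted p = 3.77e-06). AT1G78070 gave 1034, 841 and 930.4 against 73.6, 127 and 108, 8.13-fold lower (-3.02 ± 0.28, adjusted p = 1.88e-08). The naming rule required groups without overlap. TRM28, a member of the TON1 recruiting motif family, whose name refers to a protein that organises cortical microtubules, gave 1204, 686 and 1223 with empty vector and 116, 155 and 132 with IAA7mII, 6.81-fold lower (-2.77 ± 0.29, adjusted p = 2.06e-07). FOLB2, a dihydroneopterin aldolase of folate synthesis, gave 274, 170.5 and 141 against 42.6, 29.3 and 1.40, 5.69-fold lower (-2.51 ± 0.54, adjusted p = 0.00235). The IAA7mII arrays spread more for FOLB2 than for TRM28, with replicate 3 close to no signal. Further members of the 12 largest falls were AT5G41680, AT3G49720, AT3G27220, AT5G66310, AT4G10270, AT4G36500 and AT1G64380, 5.17-fold to 8.36-fold lower. AT5G66310 rested in part on empty vector replicate 2, at 887 beside 263 and 217; without that array its change was -1.89 with an adjusted p of 0.0663. AT4G10270 is described with the low-oxygen genes.

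**Figure D2:**
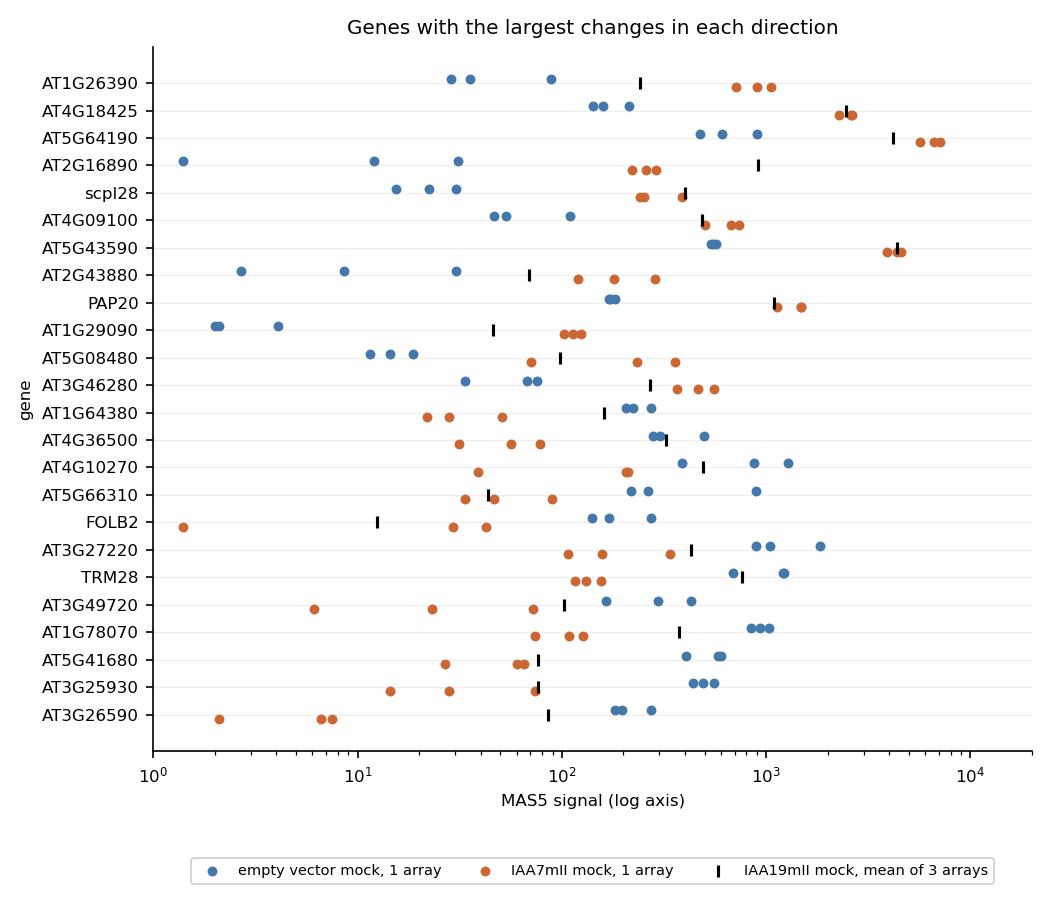
MAS5 signal on a log axis for the 12 genes with the largest changes in each direction, with empty vector mock arrays in blue, IAA7mII mock arrays in orange and the mean of 3 IAA19mII mock arrays as a black tick. The blue and orange points of a gene do not overlap in any row, which the choice of these genes required, and the tick lies near the orange points for AT4G18425 and AT5G43590 but near the blue points for AT4G36500 and TRM28.

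Among genes with the smallest adjusted p outside those lists, AT1G17310 gave 1237, 1284 and 1318 with empty vector and 5953, 5119 and 6372 with IAA7mII, 4.48-fold higher (2.16 ± 0.16, adjusted p = 2.98e-10). AT2G25625 and AT2G38790 were 4.64-fold and 4.21-fold higher, AT5G59490 was 5.73-fold higher and AT5G54130 was 6.36-fold higher. AT5G54130 was the single gene of 107 with more than 1 tested probeset for which all were called the same way; its probesets changed by 2.91 and 2.67. In 11 of the 12 such genes with any call, another probeset of the gene was not called. In the other direction AT4G13180 gave 1882, 1835 and 1592 against 340.0, 579 and 382, 4.06-fold lower (-2.02 ± 0.24, adjusted p = 1.71e-06). AT5G65240, AT1G72160 and AT5G43450 were 4.67-fold, 3.42-fold and 5.02-fold lower.

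Of 11 tested genes in the Aux/IAA, GH3, auxin transport and LBD lists, 4 fell with IAA7mII and 0 rose, beside 5.45% and 4.83% of all tested genes. WES1 (GH3.5), which joins auxin to amino acids, gave 3456, 3048 and 2855 with empty vector and 1330.1, 1100.3 and 1158 with IAA7mII, 2.59-fold lower (-1.37 ± 0.17, adjusted p = 2.40e-06). GH3.3, an enzyme of the same kind and a known early target of auxin, gave 34.2, 38.4 and 66.0 against 13.0, 1.70 and 2.50, 2.87-fold lower (-1.52 ± 0.44, adjusted p = 0.0220). Both GH3 genes had non-overlapping groups, GH3.3 at low signal. The Aux/IAA repressor gene IAA30 gave 75.0, 113 and 72.9 against 14.4, 28.7 and 28.5, 2.58-fold lower (-1.37 ± 0.35, adjusted p = 0.0103). WAG2, a kinase that acts on PIN auxin carriers, gave 82.5, 49.4 and 156 against 6.30, 15.9 and 25.7, 3.35-fold lower (-1.74 ± 0.46, adjusted p = 0.0116). All IAA7mII arrays were below all empty vector arrays for these genes.

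The GH3 list had 4 tested members, of which 2 fell and 0 rose (10.3% of all tested genes were called in either direction), with a median change of -0.87 beside -0.08 over all tested genes. GH3.17 gave 1574 to 3058 against 2479 to 3424 (0.36 ± 0.21, adjusted p = 0.304), and GH3.1 gave 14.9 to 36.2 against 11.6 to 20.0 (adjusted p = 0.707). In the plasmid comparison with IAA, 1 of the 4 GH3 genes was called higher, GH3.17 (1.26, adjusted p = 6.21e-05), and 3 lower. There 18.1% of all tested genes were called in either direction. The Aux/IAA list had 4 tested members, of which 1 fell, with a median of -0.79. IAA18 gave 323, 386 and 429.7 against 196, 212 and 236, without overlap (-0.77 ± 0.26, adjusted p = 0.0577). IAA29 gave 8.10, 1.50 and 56.0 against 2.10, 1.30 and 1.90, so that its change of -0.81 rests on empty vector replicate 3 and was -0.21 without it. IAA34 overlapped between groups (adjusted p = 0.565). LBD16, a regulator of lateral root initiation, gave 114, 99.7 and 98.8 against 59.0, 49.7 and 28.3, without overlap (-0.99 ± 0.41, adjusted p = 0.131), and LBD29 was near no signal in both groups. RR16, a type-A response regulator that dampens cytokinin signalling, was the only tested member of its list and went the other way, with 4.50, 12.3 and 0.900 against 97.7, 38.5 and 118, 4.39-fold higher (2.13 ± 0.40, adjusted p = 5.68e-04). Auxin response factors, TIR1/AFB receptors and SAUR genes had no named probeset and were not analysed here.

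Single arrays decided some of these calls. IAA30 was not called without empty vector replicate 2 (-1.20, adjusted p = 0.0621) or without IAA7mII replicate 1 (-1.19, adjusted p = 0.0584). WAG2 was not called without empty vector replicate 3 (-1.37, adjusted p = 0.105) or IAA7mII replicate 1 (-1.51, adjusted p = 0.0675). GH3.3 was not called without empty vector replicate 3 (-1.30, adjusted p = 0.119), IAA7mII replicate 2 (-1.39, adjusted p = 0.0772) or IAA7mII replicate 3 (-1.42, adjusted p = 0.0812). WES1 and RR16 were called in each of the 17 alternative settings.

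Plants in low oxygen stabilise a group of ethylene response factors that switch on fermentation and a small set of further genes. Of 8 tested members of the low-oxygen list, 5 fell and 0 rose, beside 5.45% of all tested genes falling, and the median change was -1.60. PDC2, a pyruvate decarboxylase of ethanol fermentation, gave 661, 328 and 664 with empty vector and 191, 167 and 190.2 with IAA7mII, 2.73-fold lower (-1.45 ± 0.40, adjusted p = 0.0164). AT3G10040 (HRA1), a factor that attenuates the low-oxygen response, gave 873, 902 and 1882 against 214, 334 and 446, 3.47-fold lower (-1.79 ± 0.44, adjusted p = 0.00665). The loci AT3G27220, AT4G10270 and AT4G24110 are in the list by their identifiers. AT3G27220 gave 1047, 891 and 1829 against 107, 158 and 339, 6.16-fold lower (-2.62 ± 0.57, adjusted p = 0.00247). AT4G24110 gave 2175, 1525 and 3932 against 634, 593 and 869, 3.36-fold lower (-1.75 ± 0.28, adjusted p = 8.56e-05). AT4G10270 gave 873, 388 and 1273 against 38.7, 206 and 211, 5.52-fold lower (-2.46 ± 0.69, adjusted p = 0.0186). Empty vector replicate 3 was the highest array in each of these 5 genes, yet the groups did not overlap.

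The 3 low-oxygen members that were not called also had negative changes, from -0.60 for AT1G33055 to -1.07 for AT4G33560, and AT5G10040 at -0.67 was -0.01 without empty vector replicate 3. The number called lower was 2 without empty vector replicate 3, 3 without empty vector replicate 1 or IAA7mII replicate 1, 4 without IAA7mII replicate 2 and 5 without either remaining array. AT4G10270 was not called without empty vector replicate 1 (-2.36, adjusted p = 0.0709) or 3 (-2.10, adjusted p = 0.111) or IAA7mII replicate 1 (-1.79, adjusted p = 0.143). PDC2 was not called without empty vector replicate 1 (-1.29, adjusted p = 0.0910) or 3 (-1.28, adjusted p = 0.0918) or IAA7mII replicate 2 (-1.39, adjusted p = 0.0537). AT3G10040 was not called without empty vector replicate 3 (-1.44, adjusted p = 0.0693) or IAA7mII replicate 1 (-1.53, adjusted p = 0.0505). AT3G27220 and AT4G24110 were called in every setting tried. The other 16 listed genes, ADH1 and SUS1 among them, had no named probeset and were not analysed here.

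**Figure D3:**
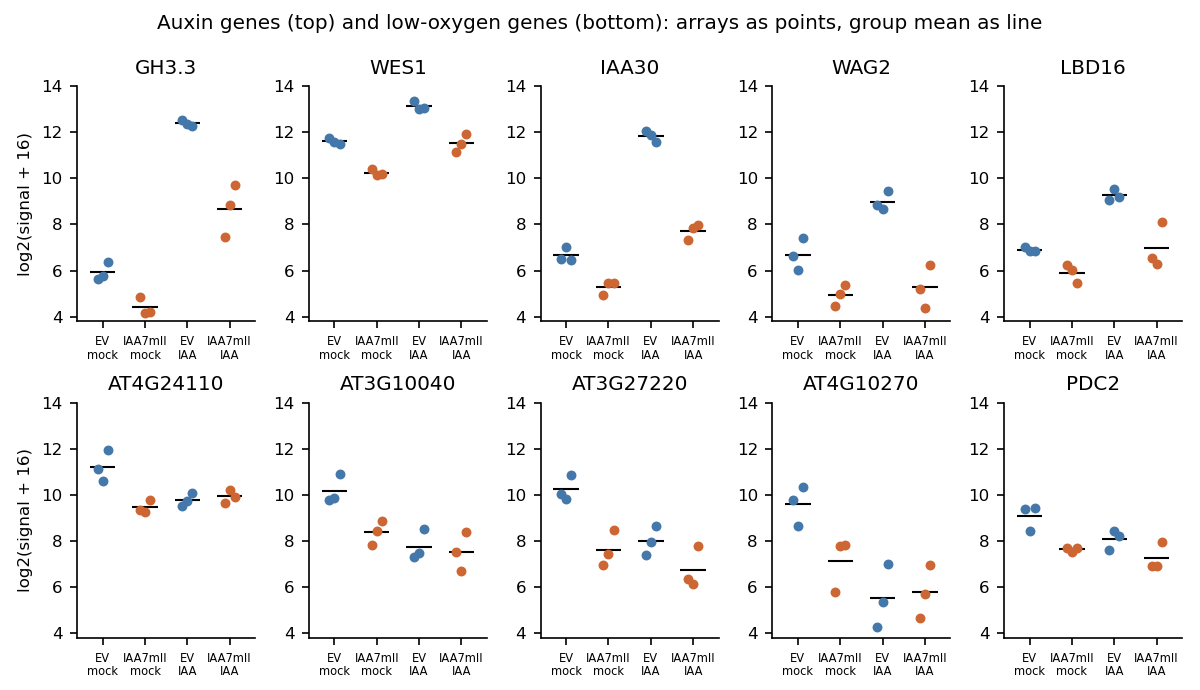
Log2(signal + 16) per array (points) and group mean (line) for 5 auxin response genes (top) and 5 low-oxygen genes (bottom) in empty vector (EV, blue) and IAA7mII (orange) cells, mock and with IAA. In mock every orange point lies below every blue point of the same gene, while with IAA the groups separate for the 5 auxin genes and overlap for the 5 low-oxygen genes. The genes shown are the 4 called falls of the auxin lists with LBD16, and the 5 called low-oxygen genes, so separation in mock largely follows from that choice. Of the other tested auxin genes, GH3.17, GH3.1, IAA29, IAA34 and LBD29 overlapped in mock and IAA18 did not.

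Enzymes of central carbon metabolism, a list put together after the changes of its members had been seen, are given as a description. Of 21 tested members 10 fell and 2 rose, beside 5.45% and 4.83% of all tested genes, with a median of -0.63 beside -0.08. Nothing is read from this count, since the list was chosen for its changes, and one of the 10 falls is PDC2, already given among the low-oxygen genes. GAPC2, a cytosolic glyceraldehyde-3-phosphate dehydrogenase of glycolysis, gave 1147, 1065 and 1281 with empty vector and 257, 475 and 439 with IAA7mII, 2.99-fold lower (-1.58 ± 0.34, adjusted p = 0.00218). TPI, the cytosolic triose phosphate isomerase, gave 3505, 3494 and 3645 against 1669, 2458 and 1143, 2.11-fold lower (-1.08 ± 0.22, adjusted p = 0.00163). ICL, the isocitrate lyase of the glyoxylate cycle, gave 734, 653 and 867 against 137, 327 and 197, 3.41-fold lower (-1.77 ± 0.39, adjusted p = 0.00301). The empty vector arrays were tight and the IAA7mII arrays scattered below them in these genes. ETFBETA and ETFALPHA, the subunits of the mitochondrial electron transfer flavoprotein, were 1.95-fold and 2.36-fold lower. Cytosolic isocitrate dehydrogenase (cICDH), cytochrome c (CYTC-1), succinate dehydrogenase (SDH1-1) and the processing peptidase subunit MPPBETA were 1.40-fold to 1.92-fold lower.

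The 2 members that rose were ACLA-2, a subunit of ATP-citrate lyase, which makes cytosolic acetyl-CoA, and PGM (AT1G78050), a phosphoglycerate mutase. ACLA-2 gave 621, 701 and 701 against 2221, 1606 and 2765, 3.14-fold higher (1.65 ± 0.34, adjusted p = 0.00148). Its paralogues ACLA-1 and ACLA-3 changed by -0.47 (adjusted p = 0.273) and 0.02 (adjusted p = 0.970). PGM gave 561 to 691 against 952 to 1290.5, 1.74-fold higher (0.80 ± 0.19, adjusted p = 0.00536). Without one array the number called lower was 4 to 9, the lowest without empty vector replicate 1 and 6 without IAA7mII replicate 2, while both rises were called each time. GAPC2, TPI, ICL and ETFBETA were called in every setting tried. ETFALPHA, cICDH, SDH1-1 and MPPBETA were not called with arrays centred over tested probesets, where their changes were -1.02, -0.72, -0.46 and -0.27, and neither was CYTC-1 at -0.58.

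Beta-glucosidases release sugars or active compounds from glucosides. The BGLU family was not one of the lists set by function. It is 1 of 29 families formed by gene symbol, and is given here because it had the most rises of them. Its count is thus a description. Of 14 tested BGLU genes 5 rose and 0 fell, beside 4.83% of tested genes rising, with a family median of 0.65. BGLU46, known for hydrolysing monolignol glucosides, gave 1979, 2971 and 1843 with empty vector and 8326, 7387 and 7318 with IAA7mII, 3.44-fold higher (1.78 ± 0.15, adjusted p = 4.02e-09). BGLU15 gave 208, 163 and 203 against 1214, 713 and 871, 4.49-fold higher (2.17 ± 0.26, adjusted p = 1.67e-06). BGLU41 gave 64.2, 56.2 and 50.7 against 388, 360.5 and 225, 4.56-fold higher (2.19 ± 0.35, adjusted p = 7.30e-05). These 3 genes had their lowest IAA7mII array above their highest empty vector array by a wide margin. BGLU16 and BGLU28 were 2.65-fold and 2.59-fold higher, BGLU28 with adjusted p = 0.0820 and a change of 1.02 without empty vector replicate 1. BGLU25 was the family member with the largest negative change (-0.72 ± 0.25, adjusted p = 0.0577), and it was called lower without empty vector replicate 1 (-0.88, adjusted p = 0.0483). BGLU15 and BGLU28 are neighbouring members by identifier (AT2G44450 and AT2G44460), and BGLU29 (AT2G44470), next in number, changed by -0.05.

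Sugar transporters and invertases rose in 4 of 11 tested members and fell in 0, beside 4.83% of all tested genes rising, with a median of 0.63. The number was 3 in 5 of the 6 fits that left out an array. SFP1, a sugar porter family transporter, gave 1632, 1397 and 1486 against 4402, 3904 and 4133, 2.74-fold higher (1.45 ± 0.16, adjusted p = 3.07e-07). The neighbouring gene SFP2 was weak, at means of 5.17 and 18.6, and was not called (0.63 ± 0.39, adjusted p = 0.339). SWEET2, a vacuolar glucose transporter of roots, gave 2430.0, 3251 and 2209.6 against 5138, 3828 and 5086, 1.78-fold higher (0.84 ± 0.18, adjusted p = 0.00247). The invertase-like gene cwINV6, annotated as a fructan exohydrolase, gave 10.7, 36.9 and 24.1 against 311, 183 and 105, 5.18-fold higher (2.37 ± 0.35, adjusted p = 3.10e-05). SWEET8 gave 8.40, 8.30 and 5.40 against 71.2, 29.5 and 70.0 (1.58 ± 0.47, adjusted p = 0.0273), and its call was lost on leaving out any array but IAA7mII replicate 2, with adjusted p from 0.0652 to 0.107. AMY1, an alpha-amylase picked out after its values were seen, was 2.64-fold higher (1.40 ± 0.30, adjusted p = 0.00221).

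Cytochromes P450, oxidases of secondary and hormone metabolism, rose in 4 of 14 tested members and fell in 1, beside 4.83% and 5.45% of all tested genes, with a median of 0.57. Of the 14 genes that could be read, 12 belong to the CYP71B subfamily, the called ones included. CYP71B29 gave 2.50, 3.40 and 2.40 with empty vector and 103, 82.9 and 99.2 with IAA7mII, 5.89-fold higher (2.56 ± 0.36, adjusted p = 1.29e-05). CYP71B5 gave 73.3, 46.2 and 92.6 against 406, 362 and 301, 4.38-fold higher (2.13 ± 0.32, adjusted p = 3.61e-05). CYP71B23 gave 1021 to 1088 against 1724 to 2345, 1.97-fold higher (0.98 ± 0.22, adjusted p = 0.00266). CYP71B6, which acts in the camalexin and indole carboxylic acid pathways, gave 4188, 5768 and 4497 against 2738, 3069.9 and 3009, 1.62-fold lower (-0.70 ± 0.15, adjusted p = 0.00188), and was not called with arrays centred over tested probesets (-0.48). CYP71B21 was 3.23-fold higher, with adjusted p = 0.0684 without empty vector replicate 1 (1.46) and 0.0518 without IAA7mII replicate 3 (1.53).

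**Figure D4:**
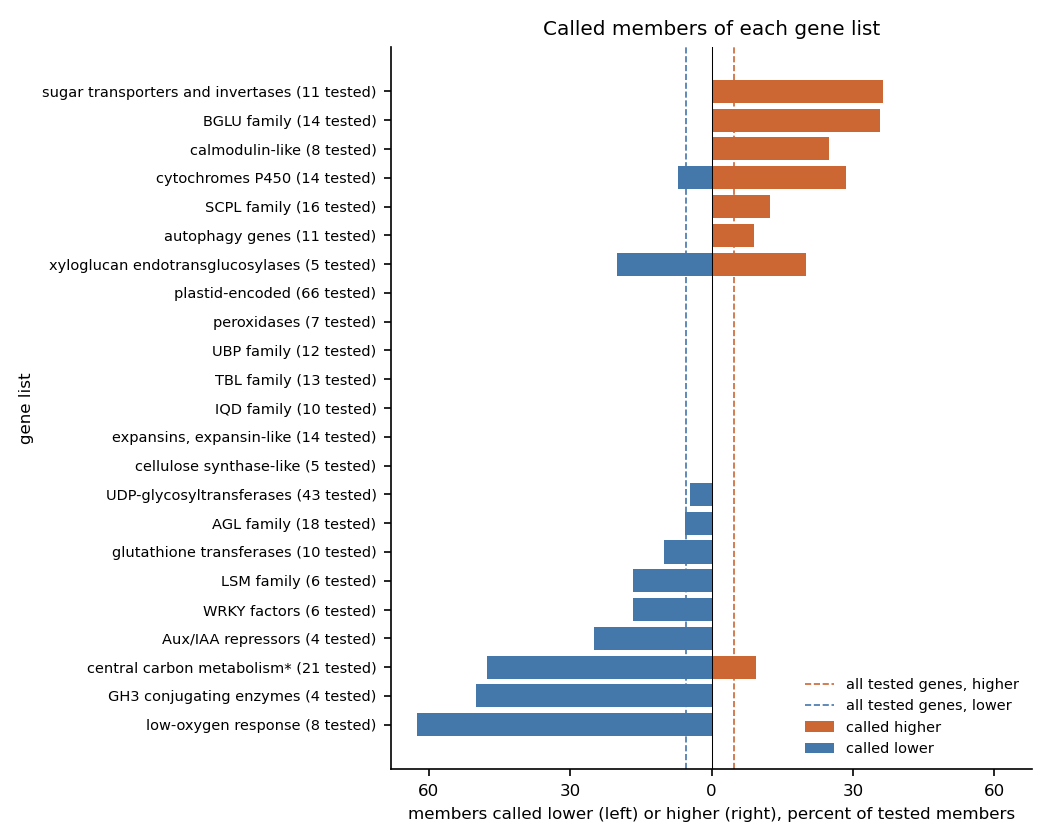
Percent of tested members called higher (orange, to the right) or lower (blue, to the left), with dashed lines at the 4.83% and 5.45% of all tested genes. Shown are gene lists with at least 4 tested members and some of the 29 families formed by gene symbol, the beta-glucosidases chosen for their rises. Low-oxygen, GH3 and central carbon genes lie furthest left, sugar transporters, beta-glucosidases and cytochromes P450 furthest right, and plastid-encoded genes had no call; the central carbon list, marked with an asterisk, was put together after its changes had been seen, so its place shows that choice.

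Of 3 tested indole defence loci 2 rose, and of 2 tested pathogenesis-related genes 2 rose, beside 4.83% of all tested genes. AT1G26390, described above, and AT1G26420 stood in the list of indole defence loci by identifier; AT1G26420 gave 105, 477 and 84.6 against 729, 860.3 and 863, 4.57-fold higher (2.19 ± 0.44, adjusted p = 0.00122), and its change was 2.91 without the high empty vector replicate 2. The neighbouring AT1G26380 had means of 76.2 and 159 and was not called (adjusted p = 0.292). Of the pathogenesis-related genes, AT4G16260 gave 198, 184 and 294 against 768, 858 and 876, 3.59-fold higher (1.84 ± 0.29, adjusted p = 7.95e-05). OSM34, an osmotin of the thaumatin-like PR-5 family, gave 2573, 2593 and 2891 against 4403, 4530.2 and 4197, 1.63-fold higher (0.70 ± 0.16, adjusted p = 0.00446). CHI (AT2G43570), annotated as a putative chitinase and chosen after its values were seen, was 2.59-fold higher (1.37 ± 0.21, adjusted p = 4.62e-05). Calcium-binding calmodulin-like genes rose in 2 of 8 tested members, beside 4.83% of all tested genes, and in 1 without empty vector replicate 1 or 3. CML23 gave 399.6, 405 and 253 against 1276, 839 and 667, 2.52-fold higher (1.33 ± 0.26, adjusted p = 8.24e-04). CML37 was 1.83-fold higher, with adjusted p = 0.0760 without empty vector replicate 1 (0.69) and 0.0594 without replicate 3 (0.76). Of 6 tested WRKY factors, regulators of defence and senescence, 0 rose and 1 fell, beside 4.83% and 5.45% of all tested genes. The fall was that of ZAP1 (WRKY1), with 1882, 1398 and 1639.8 against 708, 1157 and 1239.6 (-0.69 ± 0.21, adjusted p = 0.0319). It was not called without empty vector replicate 1 (-0.58) or 3 (-0.68) or IAA7mII replicate 1 (-0.44).

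Of 11 tested autophagy genes 1 rose, ATG8E, and 0 fell, beside 4.83% and 5.45% of all tested genes. ATG8E, one of the ubiquitin-like proteins that coat autophagosomes, gave 2408, 2332 and 2246 with empty vector and 4729, 3592 and 3909 with IAA7mII, 1.73-fold higher (0.79 ± 0.14, adjusted p = 2.24e-04). The 11 tested autophagy genes had a median of 0.33. The paralogue ATG8F changed by 0.12 (adjusted p = 0.724) and APG8A by 0.45 (adjusted p = 0.0831). ALPHA-VPE, a vacuolar processing protease named after its values were seen, gave 2600.0, 2770.4 and 2455 against 5867, 5568 and 6206, 2.25-fold higher (1.17 ± 0.16, adjusted p = 1.20e-05). Its arrays varied little within each group.

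Cell wall genes gave opposite changes in 2 xyloglucan endotransglucosylases, enzymes that cut and rejoin wall xyloglucan. XTH18 gave 609, 1251 and 488 against 1949, 2004 and 2569.7, 2.95-fold higher (1.56 ± 0.33, adjusted p = 0.00207). XTH19, adjacent by identifier, gave 216, 291 and 221 against 112, 119 and 142, 1.83-fold lower (-0.87 ± 0.28, adjusted p = 0.0404). The XTH19 call was lost on leaving out any one of the 6 arrays, with changes of -0.74 to -0.96 and adjusted p of 0.0610 to 0.164. These 2 genes are similar in sequence, and cross-hybridisation was not tested. None of 14 tested expansin and expansin-like genes, which belong to a family of wall-loosening proteins, was called; EXPB2 gave 1.70 to 30.5 against 20.1 to 46.1 and EXPA21 gave 23.6 to 37.1 against 2.70 to 25.0, overlapping. None of 5 cellulose synthase-like genes and none of 7 peroxidases was called. Among all tested genes 10.3% were called, so lists this short tell little by having no call. Cellulose synthase (CESA) genes were not analysed here.

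Among UDP-glycosyltransferases, which attach sugars to hormones and secondary compounds, 2 of 43 fell and 0 rose, beside 5.45% and 4.83% of all tested genes. UGT76D1 gave 314, 207 and 464 against 37.5, 90.5 and 37.9, 4.86-fold lower (-2.28 ± 0.31, adjusted p = 7.66e-06). UGT73B4 gave 587, 824 and 474 against 191, 207 and 149, 3.20-fold lower (-1.68 ± 0.28, adjusted p = 1.26e-04). GSTU22 was the 1 call among 10 glutathione transferases, beside 10.3% of all tested genes called in either direction. It was 2.51-fold lower (-1.33 ± 0.29, adjusted p = 0.00297). LHCB4.3, a light-harvesting antenna protein, was 2.44-fold higher (1.29 ± 0.39, adjusted p = 0.0274), with adjusted p from 0.0598 to 0.136 without empty vector replicate 1 or 2 or IAA7mII replicate 1 or 2. None of 66 tested plastid-encoded genes was called, beside 10.3% of all tested genes. Their median of -0.13 became 0.10 with arrays centred over tested probesets. Of these, psbB changed by -0.83 (adjusted p = 0.244) and rpoA by -0.81 (adjusted p = 0.165). In families with scattered calls, TRM18, PRA1.B6, UBC32, BZIP53, VPS60.1 and TET8 were higher by 0.52 to 1.07 on the log2 scale, and ALDH10A9, AGL26, LSM6A, PUB23, the cyclophilin gene CYP71 and TET2 were lower by changes of -0.64 to -2.10. Of these 12 calls 9 were lost on leaving out some single array.

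Several regulators fell that were picked out after their values were seen. LHW, a transcription factor of vascular initials, gave 178, 108 and 159 with empty vector and 62.5, 2.70 and 9.60 with IAA7mII, 4.82-fold lower (-2.27 ± 0.47, adjusted p = 0.00178), with -2.88 without IAA7mII replicate 1. CLE44, which encodes a peptide that holds back xylem differentiation, gave 122, 48.9 and 120.5 against 11.9, 1.30 and 4.50, 4.98-fold lower (-2.32 ± 0.47, adjusted p = 0.00119). PHV, a class III homeodomain leucine zipper factor of organ polarity and vascular patterning, gave 114, 115 and 115 against 27.0, 23.0 and 51.4, 2.70-fold lower (-1.43 ± 0.37, adjusted p = 0.00952). BPEp, a basic helix-loop-helix factor that limits petal cell expansion, was 5.06-fold lower (-2.34 ± 0.47, adjusted p = 0.00108). UPB1 (UPBEAT1), which sets the balance of reactive oxygen between dividing and elongating root cells through peroxidase genes, gave 2839, 1931 and 2619.8 against 776, 1329 and 665, 2.72-fold lower (-1.45 ± 0.28, adjusted p = 7.97e-04). The 7 tested peroxidases had a median change of 0.12, and none was called, beside 10.3% of all tested genes. These were not chosen as targets of UPB1, and all but AT5G64120 had low signal, so an effect through UPB1 was not tested. HYH and NAI1, picked out in the same way, were lower by -2.20 ± 0.67 (adjusted p = 0.0310) and -1.20 ± 0.35 (adjusted p = 0.0255). Their calls were lost in 8 and 5 of 17 alternative settings. In the other direction ROXY1, a plant-specific glutaredoxin, gave 147, 256 and 180.4 against 492, 733 and 666, 3.10-fold higher (1.63 ± 0.36, adjusted p = 0.00254), and GTR1, a glucosinolate transporter, was 2.00-fold higher (1.00 ± 0.21, adjusted p = 0.00196). SHB1 was 2.57-fold higher (1.36 ± 0.31, adjusted p = 0.00373).

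The same plasmid comparison made with IAA used 6 other arrays. It called 3288 probesets (19.5%), 1304 higher (7.72%) and 1984 lower (11.7%). Of the 900 probesets higher in mock, 758 were also called higher with IAA, which is 84.2% of the mock list and 58.1% of the IAA list. Of the 1028 lower in mock, 727 were called lower with IAA, 70.7% and 36.6% of the lists. Only 2 probesets called in mock were called in the opposite direction with IAA. Across all tested probesets the 2 sets of changes had a Pearson r of 0.737, given as a description, since probesets share arrays and are not replicates. AT4G18425, AT5G43590 and PAP20 changed by 4.26, 3.67 and 4.04 with IAA, beside 3.76, 2.92 and 2.84 in mock.

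**Figure D5:**
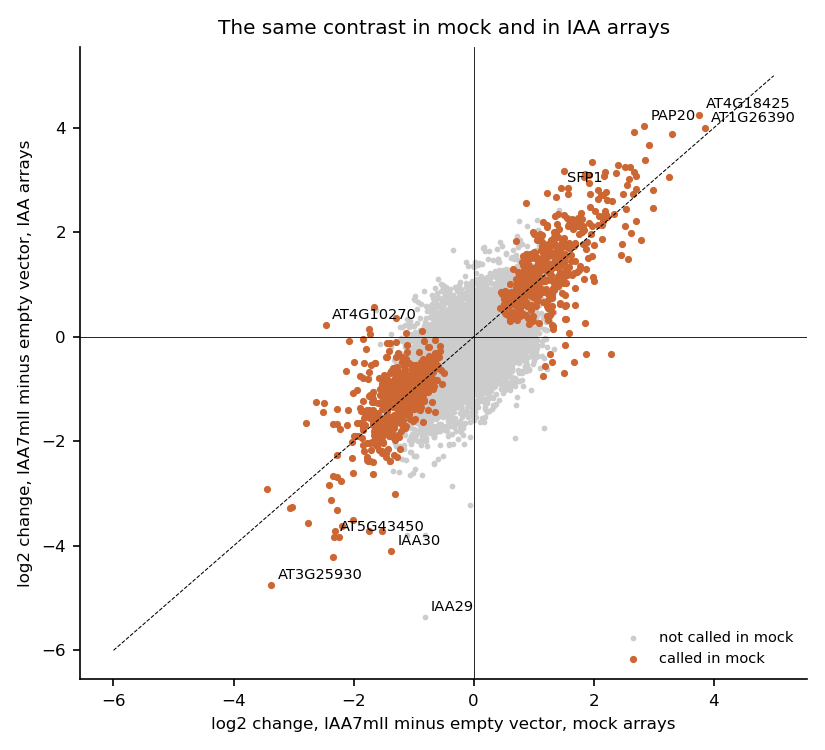
Each point is a gene, with its log2 change (IAA7mII minus empty vector) on the mock arrays on the horizontal axis and on the IAA arrays on the vertical axis; orange points were called in mock and the dashed line marks equal changes. Most orange points lie to the lower left and upper right, IAA30 and IAA29 lie far below the line, and AT4G10270 lies at 0.23 with IAA against -2.46 in mock.

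A test of the difference between the 2 plasmid effects (IAA minus mock), added after the data had been seen, called 11 of 16892 probesets, with 844 at an unadjusted p under 0.05. It called IAA30, whose plasmid difference was -1.37 in mock and -4.10 with IAA (difference -2.73 ± 0.50, adjusted p = 0.0235). It also called IAA29, at -0.81 and -5.36 (difference -4.54 ± 0.68, adjusted p = 0.00165), and SFP1, at 1.45 and 2.85 (difference 1.39 ± 0.22, adjusted p = 0.00408). A difference can also rest on listed zeros. Probeset 257769_at, described below, was at 4.69 in mock and -5.79 with IAA, where its IAA7mII arrays are listed at 0. None of the 8 low-oxygen genes passed this test: AT4G24110 changed by -1.75 in mock and 0.15 with IAA (difference 1.90 ± 0.40, adjusted p = 0.0658), and AT4G10270 by -2.46 and 0.23 (adjusted p = 0.788). With IAA the empty vector arrays of AT4G24110 read 716, 841 and 1055 and the IAA7mII arrays 780.4, 1181 and 953, so the groups overlapped there. None of the 8 low-oxygen genes was called with IAA, beside 18.1% of all tested genes.

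The IAA19mII mock arrays carry the same backbone, pBeaconRFP, as the IAA7mII arrays, and a direct comparison with them called 738 probesets (4.37%), 208 higher (1.23%) and 530 lower (3.14%) with IAA7mII. It shares the IAA7mII arrays with the main comparison, so the values are only set side by side. Some genes stood apart from both other plasmids. TRM28, at 116 to 155 with IAA7mII, had means of 1038 with empty vector and 762 with IAA19mII (-2.37 against IAA19mII, adjusted p = 4.53e-06). AT5G43450 had an IAA19mII mean of 1930.3 beside 105 to 181 with IAA7mII (-3.76, adjusted p = 1.35e-10). UGT76D1 had an IAA19mII mean of 357 (-2.45, adjusted p = 4.79e-06), UPB1 one of 2235 (-1.32, adjusted p = 0.00379) and WES1 one of 2734 (-1.18, adjusted p = 3.84e-05). Among the rises, AT1G26390 had an IAA19mII mean of 242 (1.88, adjusted p = 0.00107), AT5G54130 one of 590.5 (1.90, adjusted p = 4.73e-06) and ACLA-2 one of 489 (2.16, adjusted p = 1.23e-04).

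For other genes the IAA19mII arrays were at or beyond the IAA7mII level. AT4G18425 had an IAA19mII mean of 2466 (0.02 against IAA19mII, adjusted p = 0.979), and BGLU46 one of 8352 (-0.12, adjusted p = 0.792). The groups of GH3.3 and IAA30 were also not called against IAA19mII (-0.05 with adjusted p = 0.981 and 0.04 with adjusted p = 0.979). A call missed there does not show that the plasmids act alike. cwINV6 reached a mean of 2746 with IAA19mII, beside 105 to 311 with IAA7mII (-3.76, adjusted p = 4.91e-08), OSM34 reached 8763 (-0.99, adjusted p = 2.20e-04) and AT2G16890 reached 917 (-1.74, adjusted p = 0.00291).

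Of the called probesets 445 of the higher and 514 of the lower had no single gene in the annotation used, and the 2 largest rises and the largest fall among those with no gene are given here, a choice made with the values known. Probeset 260492_at gave 405, 324 and 233 with empty vector and 16461, 15472 and 18836 with IAA7mII, 51.3-fold higher (5.68 ± 0.27, adjusted p = 2.94e-14). It read 6797 to 9141 with IAA19mII. Probeset 262099_s_at gave 559, 724 and 731 against 19.2, 14.4 and 15.1, 21.2-fold lower (-4.41 ± 0.28, adjusted p = 1.77e-11), beside 285 to 699.5 with IAA19mII. Probeset 257769_at gave 1045, 1139.8 and 882 against 25589.8, 26349 and 28174, 25.8-fold higher (4.69 ± 0.18, adjusted p = 6.76e-16), beside 1357 to 1550.5 with IAA19mII. On the 3 IAA7mII arrays with IAA this last probeset is listed at 0, and only 8 of the 409428 values in the table are exactly 0. It is 1 of the 2 probesets called in opposite directions in mock and with IAA, and the source of the 0 was not tested. Probeset 258399_at, also with no gene here, is in turn listed at 0 on the 3 IAA19mII arrays with IAA. In mock it gave 26034 to 35135 with IAA19mII, 629 to 881 with empty vector and 67.2 to 83.9 with IAA7mII.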

How the data were processed

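The authors deposited MAS5 signal intensity per probeset for each array, unlogged; the tool MAS5 comes from the submitters' processing notes, without a version. Their scaling was kept. Signals were taken as log2(signal + 16). A probeset was tested if it exceeded the 40th percentile of the array on 3 or more of 18 arrays (16892 of 22746). One mean per group was fitted over all 18 arrays with limma 3.58.1 (R 4.3.3), with an intensity trend, and p-values were adjusted over all tested probesets (Benjamini-Hochberg). The supplied probe table gave 1 gene to 13513 probesets (13436 matched in RefSeq TAIR10.1), several to 503 and none to 8730. Each gene was read from its probeset of highest mean.

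Genes named were the 12 largest called changes per direction among genes without overlap of groups, and the 6 further calls of smallest adjusted p per direction. Up to 4 called or 2 uncalled members per list were added. The same was done for 29 families formed by gene symbol, each with at least 6 tested members. In all 117 genes met this rule, and further names are marked in the text or, for list members given beside others, follow from the list. The members and lists were chosen with earlier results of these data known, organelle lists were matched by chromosome once the tables had arrived, and a peroxiredoxin that matched the peroxidase name pattern was later taken out. Tested on simulated data of 16892 probesets, the fit recovered for this comparison 34 of 100 added changes of log2 1, and 96 of 100 when the change was log2 2. The changes were added only to probesets of higher signal, so recovery at low signal was not simulated. Of the probesets left unchanged, 6 were called. Alternatives were other pseudocounts, filters, scalings, variance models, a replicate block, a 2-fold minimum and leaving out each array. Scan dates were not used here. No sequences were used.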

Additional observations from a re-analysis of the deposited data

Results flagged for a closer look

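Of the named genes, 3 differed in their plasmid effect between IAA and mock in limma's test of that difference itself, over 16892 probesets, of which it called 11. For IAA30 the difference of log2 changes was -2.73, with an adjusted p of 0.0235. The empty vector arrays read 4203, 3772 and 2997 with IAA against 75.0, 113 and 72.9 in mock, and the IAA7mII arrays 144, 216 and 239 against 14.4, 28.7 and 28.5. This call was lost in 9 of 23 alternative settings. For IAA29, chosen outside the naming rule, the difference was -4.54, with an adjusted p of 0.00165, and the empty vector arrays rose from 1.50 to 56.0 in mock to 911 to 1164 with IAA while the IAA7mII arrays read 2.70 to 32.3. For SFP1 the difference was 1.39, with an adjusted p of 0.00408; its empty vector arrays read 545 to 709 with IAA and 1397 to 1632 in mock, and its IAA7mII arrays 4099.7 to 4606 and 3904 to 4402. The last 2 calls were each lost in 1 of 23 settings.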

How the results depend on the processing

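The mock count of 1928 called probesets was 3031 with array weights and 2809 with only the 2 groups compared, and between 1483 and 2094 under the other pseudocounts, filters, scalings, replicate block and no intensity trend, with 1305 under a 2-fold minimum. It was 1214 to 1635 with 1 array left out, 1214 without empty vector replicate 3 and 1284 without empty vector replicate 1. The count with IAA was 2380 to 3172 and that against IAA19mII 494 to 603 with 1 array left out. Scaling changed the split with IAA from 1304 higher and 1984 lower to 1730 and 1105 (median centring), 2210 and 902 (centring over tested probesets, added after seeing the data) and 1400 and 1461 (quantile). The genes counted as named here are 156, the 117 of the rule and others picked after values were seen, and some are not described above. Of their 112 calls, 72 were kept in all 17 settings, 40 were lost in at least 1 and 0 reversed. Leaving out some single array lost 36. Among 44 named genes that were not called, 4 changed sign: CSLD2 to -0.01 without IAA7mII replicate 1 (-0.01 to 0.31 with 1 array left out); BRK1 to 0.05 (median centring), 0.20 (centring over tested probesets) and 0.21 (quantile), with -0.09 to 0.10 with 1 array left out; COR47 to 0.12 and LBD29 to 0.07 (centring over tested probesets). Same-numbered arrays did not deviate together over the tested probesets (r of -0.011, 0.002 and 0.015). These r do not tell whether same-numbered samples were prepared together, and the main fit did not pair them. With the replicate block the counts were 2048, 3445 and 794. Probesets of low signal are limited by background, since the pseudocount sets their fold.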
